A study of Mus musculus with 22 samples.

Results

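MicroRNAs (miRNAs) in feces of unirradiated mice were compared with those in serum of unirradiated mice. The comparison takes every miRNA probe of the 4 arrays labelled Feces_0Gy and the 2 arrays labelled Serum_0Gy, 6 of the 22 arrays of the series, and groups the probes by the name of the miRNA they read. Each Agilent mouse miRNA array held Cy3-labelled miRNA from the total RNA of 1 sample of male mice aged 8 weeks. The animals of both groups had received 0 Gy. Feces went straight into tubes, and serum was spun from blood of the heart. The other arrays of the series held feces and serum after X-rays of 10 Gy (4 arrays each) and small intestine at both doses (4 arrays each). The labels do not say whether the samples within a group are from different animals. The p-values therefore measure at most the spread between these samples, which may be technical. All feces samples lay on 1 slide and all serum samples on another, so in every result below the slide and the kind of sample cannot be told apart.

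A miRNA is a short RNA that guides an Argonaute protein to messenger RNAs, mainly by pairing through its seed, the bases from the second to the eighth, and it represses those messages. Serum holds miRNAs released by blood cells and many tissues, protected by protein complexes and vesicles, and lysed red cells add their own. Feces holds RNA from shed gut epithelium, food and microbes, and miRNAs of epithelial cells are among its known contents. Probes of a mouse array are designed against mouse miRNAs and do not show which organism or longer RNA a bound fragment came from.

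The mature sequences that the results turn on are shown 5′ to 3′ with the seed in capitals, from RefSeq (GRCm38.p6). The first 6 were higher in feces. miR-7118-5p, miR-483-5p, miR-7020-5p, miR-7088-5p and miR-6385 were measured on all 6 arrays, and miR-7052-5p was measured in feces only.
miR-7118-5p: uGGGGAAGgcgggagagggaac
miR-483-5p: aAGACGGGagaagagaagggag
miR-7020-5p: uGGGAUGGuggagagggugaccag
miR-7088-5p: gCAAGUGGuggugaggaggggaaac
miR-6385: gCAAGGAUgacagagaggaag
miR-7052-5p: uGUGGGAAgguggaggccuuu
The next 8 belong to intestinal epithelium and fall into 4 seeds. miR-192-5p and miR-215-5p share one, miR-200b-3p, miR-200c-3p and miR-429-3p another, and miR-200a-3p and miR-141-3p another, while miR-194-5p stands alone.
miR-192-5p: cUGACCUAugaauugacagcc
miR-215-5p: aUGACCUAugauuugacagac
miR-200b-3p: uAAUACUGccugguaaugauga
miR-200c-3p: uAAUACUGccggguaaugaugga
miR-429-3p: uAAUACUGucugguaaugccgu
miR-200a-3p: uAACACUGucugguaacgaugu
miR-141-3p: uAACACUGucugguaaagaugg
miR-194-5p: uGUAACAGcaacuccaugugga
The last 9 were lower in feces than in serum. miR-92a-3p and miR-25-3p share a seed.
miR-451a: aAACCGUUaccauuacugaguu
miR-140-3p: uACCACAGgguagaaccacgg
miR-342-3p: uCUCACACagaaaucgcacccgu
miR-205-5p: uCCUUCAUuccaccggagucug
miR-30a-5p: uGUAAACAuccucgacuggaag
miR-22-3p: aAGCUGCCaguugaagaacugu
miR-29a-3p: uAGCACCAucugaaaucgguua
miR-92a-3p: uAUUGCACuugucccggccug
miR-25-3p: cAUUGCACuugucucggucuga

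Feces gave more detected miRNAs than serum on every array, from the same 1881 miRNAs of the array design. Detection on an array asked that 1 or more probes of the miRNA stand well above background in at least 50% of their spots. The feces arrays detected 468, 378, 675 and 585 miRNAs (526.5 ± 130, SD, n = 4) and the serum arrays 219 and 175 (197 ± 31.1, SD, n = 2). The exact two-sided permutation p was 0.0667, the smallest that the 15 orderings of 4 and 2 arrays allow. The control RNAs added to every sample were also brighter on the feces slide. The hybridisation spike-in stood at 3.97 ± 0.0275 in feces and 3.20 ± 0.0570 in serum (log10 signal of the file headers, SD), a ratio of 5.86-fold. The labelling spike-in stood at 3.45 ± 0.0440 in feces and 2.52 ± 0.148 in serum, a ratio of 8.52-fold, and the header of serum replicate 1 placed it outside Agilent's range. With feces signals divided by the hybridisation ratio and 1 fixed signal limit on every array, feces averaged 253.5 ± 85.2 detected miRNAs and serum 187 ± 35.4 (exact permutation p = 0.4, n = 4 and 2). Divided by the labelling ratio, feces averaged 213.25 ± 69.4 (exact permutation p = 0.667, n = 4 and 2). The difference between the means was 329.5 miRNAs by the first rule, 348 with the fixed limit alone, 66.5 after the hybridisation ratio and 26.25 after the labelling ratio.

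**Figure D1:**
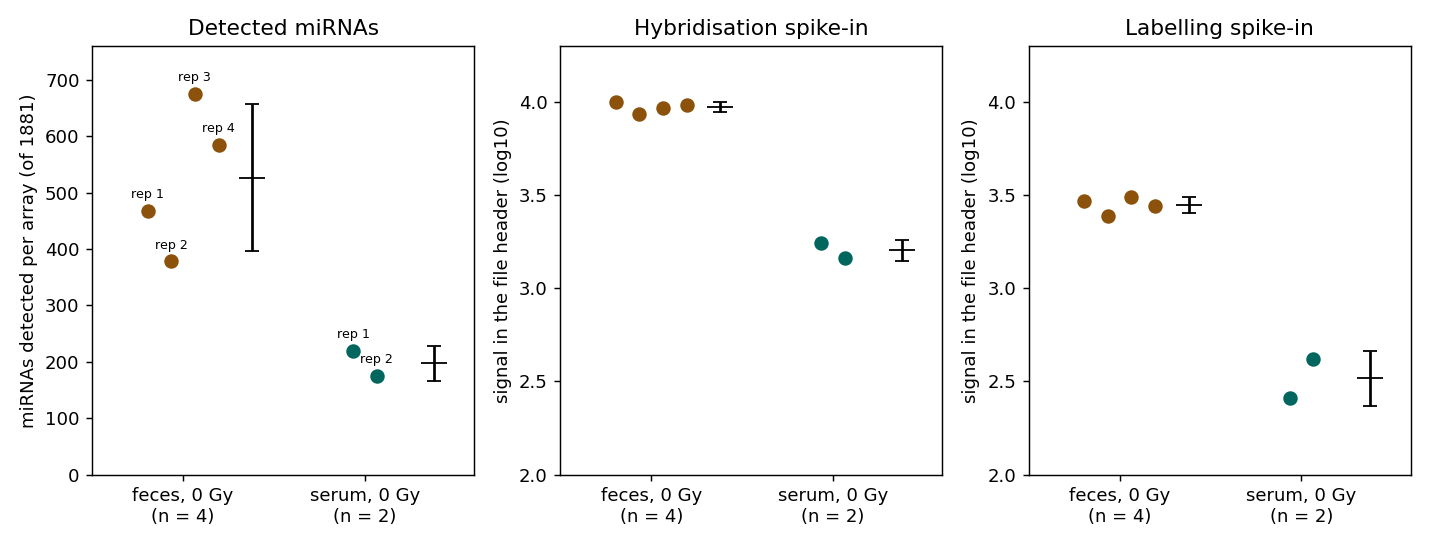
Detected miRNAs per array (left), and the log10 signals of the hybridisation (middle) and labelling (right) spike-ins, for the 4 feces arrays and the 2 serum arrays at 0 Gy, with mean ± SD beside the points. Feces arrays lie between 378 and 675 detected miRNAs and serum arrays at 175 and 219, and both spike-ins are brighter on every feces array.

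Levels below are log2 of a miRNA's signal over the array's own 75th percentile, taken across the 136 miRNAs detected on all 6 arrays, so a level of 0 equals that percentile. The percentile itself was 15.1-fold higher in feces than in serum. A change is the level in feces minus that in serum. Of 597 miRNAs detected on at least 2 of the 6 arrays, 372 (62.3%) differed by limma at a Benjamini-Hochberg adjusted p under 0.05, with 189 (31.7%) higher and 183 (30.7%) lower in feces. The arrays of both groups did not overlap for 420 of the 597 (70.4%), and for all 372 that passed. Scaling set the split between directions. With no scaling 350 were higher and 23 lower, with quantile normalization 265 and 153, and with the hybridisation spike-in as the scale 168 and 55. Without serum replicate 2 the lower calls dropped to 112 of 260 in all. Within the first row of the slides (feces replicates 1 and 2, serum replicate 1) 181 passed, and within the second row (feces replicates 3 and 4, serum replicate 2) 0 passed by limma, with 204 at an unadjusted p under 0.05.

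Many of these calls rest on signals near background. Values were raised to a floor of -7.97, while the lowest level of a detected miRNA was -5.64 and -4.63 on the serum arrays and between -13.4 and -7.59 on the feces arrays. A group wholly on this floor had an SD of 0, such as feces for miR-140-3p and serum for miR-7052-5p. For such miRNAs the SE and the limma p understate the spread between samples. Of the 189 higher calls, 151 were detected on neither serum array, and for 127 of those no lower bound on the fold above 1 could be set. Of the 183 lower calls, 85 were not detected on both serum arrays, and 67 of them on neither. A call is named supported here where every array of the brighter group detected the miRNA and the dimmer group either detected it on at least 1 array or left a bound above 1. By this definition, made after the values were seen, 160 calls were supported, of which 62 were higher and 98 lower. Of the 62 higher miRNAs 33 were also detected on all 4 arrays of unirradiated small intestine and 26 on none, against 65 and 27 of the 98 lower ones. Among the 136 miRNAs detected on all 6 arrays, 87 (64%) passed, 24 of them higher (17.6%) and 63 lower (46.3%).

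Detection alone gave 190 miRNAs found on all 4 feces arrays and neither serum array. Of these, 140 were not detected on any array of unirradiated small intestine and 38 were detected on all 4. Another 5p group, the arms of miRNAs named from miR-6896 to miR-7119, made up 37 of the 190, a share similar to its 116 of the 597 tested. Only 14 were found on both serum arrays and no feces array, and 8 of those were detected on all 4 intestine arrays. Across the 597 miRNAs, feces arrays correlated with each other at r from 0.905 to 0.966 and the serum arrays at 0.964, while a feces array and a serum array correlated at 0.428 to 0.541.

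**Figure D2:**
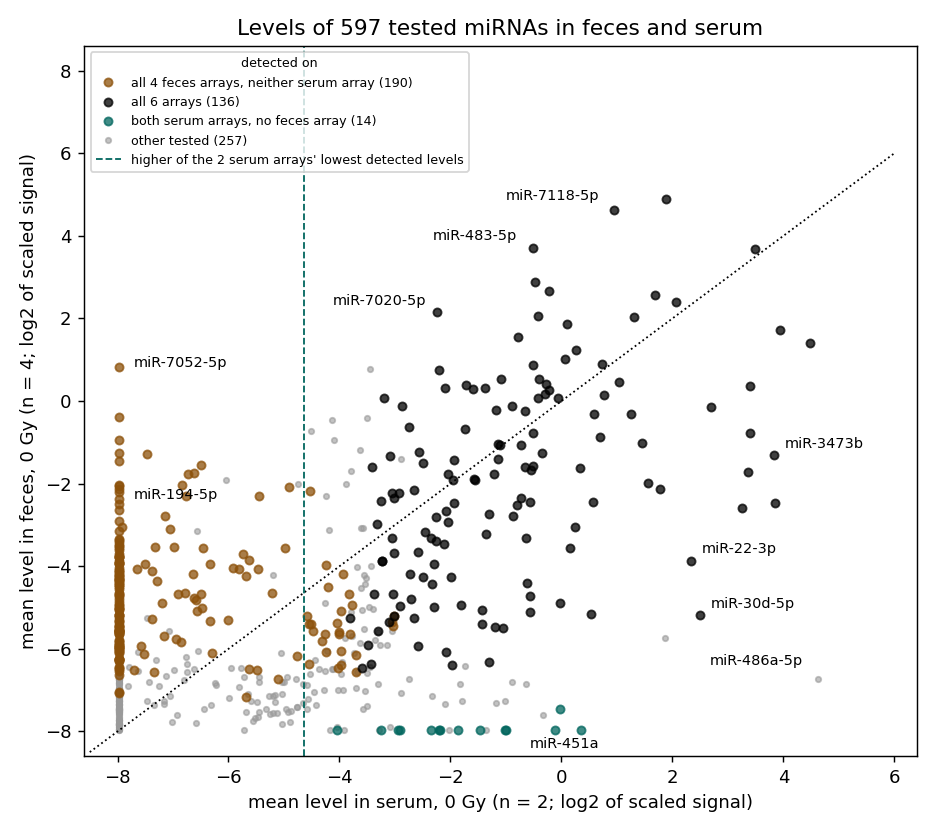
Mean level of each of the 597 tested miRNAs in serum (n = 2, horizontal) and feces (n = 4, vertical), in log2 of scaled signal, coloured by the arrays that detected it, with a dotted line of equal level. The 190 miRNAs detected in feces only crowd at the left, mostly below the lowest level that serum arrays detected, and the 14 detected in serum only lie along the bottom.

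The miRNAs that were higher in feces and measured on every array were led by 4 whose sequences are at least 50% G. That share is common in this class, since its median was 45.5% over all miRNAs detected on all 6 arrays and 50% in those that did not pass. miR-7020-5p, annotated from small RNA sequencing, had levels of 2.26, 1.69, 2.62 and 2.08 in feces, against -2.55 and -1.93 in serum. Its change was 4.40 ± 0.36 (SE, limma adjusted p = 0.000179), or 21.1-fold. miR-483-5p, encoded in an intron of the insulin-like growth factor gene Igf2, stood at 3.65, 3.82, 3.29 and 4.12 in feces, against -0.55 and -0.45 in serum, a change of 4.22 ± 0.31 (adjusted p = 0.000135, limma). Both groups were tight and far apart for these miRNAs.

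miR-7118-5p was among the brightest of all miRNAs in feces, at 4.63, 4.95, 3.85 and 5.05, against 1.05 and 0.84 in serum (change 3.67 ± 0.40, limma adjusted p = 0.000587). miR-7088-5p had 3.19, 2.56, 3.30 and 2.48 in feces and -0.46 and -0.49 in serum, a change of 3.36 ± 0.34 (limma adjusted p = 0.000409). miR-6385 had 0.67, 0.79, 0.21 and 1.36 in feces and -2.18 and -2.22 in serum (change 2.96 ± 0.36, limma adjusted p = 0.000884). No feces array came near a serum array for any of the 3. miR-762 also passed (3.28 ± 0.82, limma adjusted p = 0.0144, and 0.0863 and 0.0861 without serum replicates 1 and 2), but its 4 probes gave changes from -0.61 to 7.24 and do not read as 1 quantity. miR-7118-5p lies at chr15:89162882-89162903 on the minus strand, miR-7020-5p at chr4:139644047-139644070 on the plus strand, and miR-483-5p at chr7:142654968-142654989 on the minus strand.

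Among the higher calls the largest fitted changes belonged to miRNAs bright in feces and not well above background in serum, for which only a bound can be read. It sets the mean of the feces arrays against the serum detection limit or the floor, whichever is higher, probe by probe, and takes the lowest. Every bound given here holds only under the main scaling and background treatment. Over the alternative runs the fitted log2 change ran from 2.58 to 10.17 for miR-7052-5p and from 0.83 to 7.98 for miR-1945. miR-7052-5p (chr7:44470352-44470372, plus strand) had levels of 0.71, 1.15, 0.02 and 1.43 in feces and was not well above background on either serum array. It was at least 19.8-fold higher in feces (limma adjusted p = 2.70e-05). miR-1945 was at least 5.96-fold higher, miR-7211-3p at least 4.58-fold, miR-7223-5p at least 4.47-fold and miR-7069-5p at least 3.32-fold (limma adjusted p from 1.49e-05 to 0.000280). For miR-6994-5p, miR-6991-5p and miR-6942-5p the bounds were 2.54, 2.47 and 2.29-fold, and for miR-6971-5p and miR-666-5p only 1.49 and 1.14-fold. All 10 were detected on the 4 feces arrays, and all but miR-7069-5p (1 of 4 arrays) were detected on no array of unirradiated intestine. In all, 24 higher calls had such a bound, and it reached 2-fold in 12.

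miR-21a-5p, abundant in most mammalian tissues and raised in inflamed or dividing cells, was 1 of those 12. Its levels were -0.57, -1.66, -3.64 and -0.29 in feces, against -6.57 and -6.41, not well above background, in serum. It was at least 2.05-fold higher in feces, with a fitted change of 4.95 ± 0.95 (limma adjusted p = 0.00520), and all 4 intestine arrays detected it.

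Markers of intestinal epithelium were called higher in feces more often than lower, mostly on detection in feces alone. Of 13 listed, all on the array, 10 were tested, 7 rose, 2 fell and 1 did not pass, where 31.7% of all tested miRNAs were higher and 30.7% lower. By the rule for supported calls 3 were higher and 2 lower. The median change was 3.27, against 0.48 over all tested miRNAs. Of the 10 tested, 8 were detected on all 4 feces arrays and neither serum array. Those 8 entered the test through feces alone, so the count and the median partly reflect that filter. The 7 that rose were among these 8. All 4 intestine arrays detected the 7, and only 3 of the 7 carry a bound above 1. miR-194-5p, which is made with miR-192 or miR-215 from 2 loci and is induced as enterocytes differentiate, had -1.55, -2.60, -4.28 and -1.03 in feces and lay on the floor in serum (at least 1.18-fold higher, change 5.60 ± 0.90, limma adjusted p = 0.00270). miR-192-5p had -0.85, -2.39, -4.14 and -0.89 in feces and -5.06 and -4.75, not well above background, in serum (at least 1.83-fold higher, 2.84 ± 0.98, limma adjusted p = 0.0444). miR-215-5p was at least 1.11-fold higher (3.72 ± 0.77, limma adjusted p = 0.00683). Its lowest feces array, at -5.97, was still above both serum arrays, which were on the floor.

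The miR-200 family, which keeps epithelial cells epithelial by repressing Zeb1 and Zeb2, followed with changes of 4.198 ± 1.17 for miR-200b-3p, 4.05 ± 1.15 for miR-200a-3p, 3.58 ± 1.07 for miR-141-3p and 2.95 ± 1.02 for miR-200c-3p (limma adjusted p from 0.0208 to 0.0451). None of these 4 left a bound above 1. miR-429-3p had a change of 2.93 ± 1.13 and did not pass (limma adjusted p = 0.0628). The changes of all 8, which include miR-192-5p, miR-194-5p and miR-215-5p, turned negative under the normexp background correction.

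Both epithelial list members that fell were detected on both serum arrays. miR-375-3p, enriched in enteroendocrine cells and in pancreatic islets, had -7.12, -7.97, -7.97 and -5.97 in feces, against -2.26 and -1.32 in serum (change -5.47 ± 0.66, limma adjusted p = 0.000853). miR-378a-3p, encoded in the gene Ppargc1b and abundant in muscle and other oxidative tissue, had -4.998, -5.85, -6.09 and -4.92 in feces, against -0.75 and -1.65 in serum (-4.27 ± 0.48, limma adjusted p = 0.000675). It was the only epithelial list member measured on all 6 arrays. miR-802-5p, miR-31-5p and miR-203-3p were detected on no feces or serum array, though on all 4 intestine arrays. The summed scaled level of the 10 tested members ran from 0.195 to 1.91 in feces and from 0.785 to 0.868 in serum, so the 2 groups overlapped.

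The scaled levels of these miRNAs differed among the 4 feces samples. All 9 epithelial list members detected on every feces array were lowest in feces replicate 3, which had the most detected miRNAs (675). Replicate 3 also had the highest 75th percentile, 11156.8, against 2647.18, 1598.48 and 4555.76 for replicates 1, 2 and 4. Levels are relative to that percentile, so a low level in replicate 3 need not mean a low signal. Over all the hand-written lists replicate 3 was lowest for 32 of 35 miRNAs (91.4%), and over all 364 tested miRNAs detected on the 4 feces arrays for 218 (59.9%). Among the 5p arms of miR-6896 to miR-7119 it was lowest for 28 of 77 (36.4%). Feces without replicate 3 gave changes that were still positive for the 7 passing epithelial miRNAs, for example 5.87 for miR-194-5p and 4.67 for miR-200b-3p, and miR-429-3p then passed (3.53 ± 0.67, limma adjusted p = 0.0124). The calls of 5 of the 7 were lost on leaving out other arrays. miR-192-5p passed in 1 of the 6 fits that leave out 1 array, the one without feces replicate 3, with limma adjusted p from 0.0603 to 0.199 in the other 5. miR-200a-3p, miR-200b-3p, miR-200c-3p and miR-141-3p passed in 2 of 6, without feces replicates 2 and 3, and missed the threshold without feces replicates 1 and 4 and without either serum array (limma adjusted p from 0.0776 to 0.175). miR-194-5p and miR-215-5p passed in all 6.

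**Figure D3:**
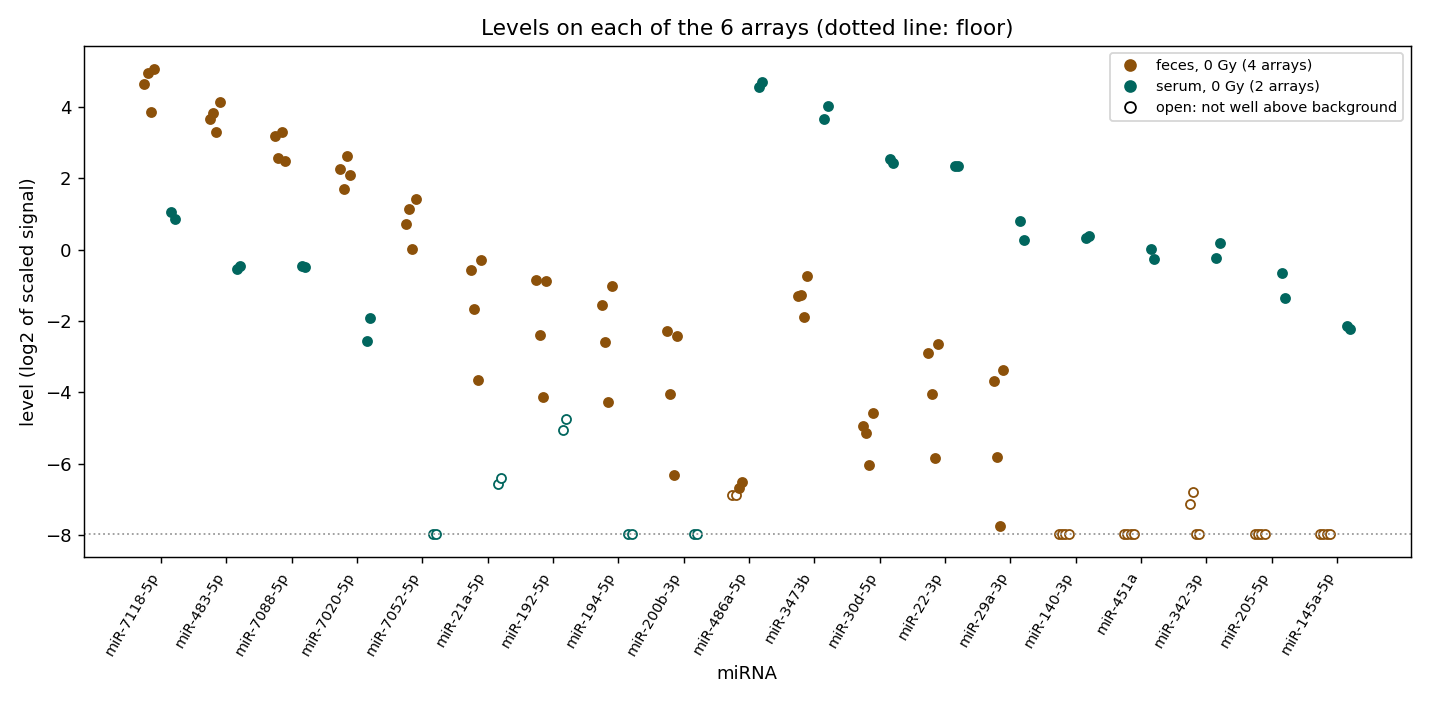
Level of 19 named miRNAs on each of the 4 feces arrays (brown, left of each pair) and 2 serum arrays (green), in log2 of scaled signal, with open points where the miRNA was not well above background and a dotted line at the floor. All 19 had passed, and feces and serum separated for every miRNA that passed and for 70.4% of the 597 tested, so the separation here follows from the choice. Of those shown the feces arrays lie furthest apart for miR-29a-3p and miR-200b-3p.

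Red-cell miRNAs gave the largest difference of the comparison. miR-486a-5p, abundant in erythrocytes and in striated muscle, stood at -6.87, -6.87, -6.69 and -6.52 in feces, where 2 of 4 arrays detected it, against 4.55 and 4.69 in serum, the highest mean of any tested miRNA there. Its change was -11.36 ± 0.24 (limma adjusted p = 3.56e-06). miR-451a (chr11:78073186-78073207, plus strand), which matures in erythroid cells by Argonaute-2 cleavage without Dicer, was not well above background on any feces array and had 0.02 and -0.26 in serum. It was at least 50.7-fold lower in feces (change -7.84 ± 0.23, limma adjusted p = 7.56e-06). miR-144-3p and miR-144-5p, made from the same transcript as miR-451a, were detected on neither kind of sample. The summed scaled level of the 2 tested members was 0.0126 to 0.0149 in feces and 24.5 to 26.7 in serum. The share of serum miRNA that lysed red cells gave was not tested.

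Other miRNAs detected in serum and on no feces array left bounds from 9.49 to 77.4-fold under the main processing. Over the alternative runs the fitted log2 change of miR-342-3p ran from -8.14 to -3.73. miR-342-3p, from an intron of the gene Evl and abundant in lymphocytes, was below detection in feces, against -0.23 and 0.18 in serum, and was at least 77.4-fold lower in feces (limma adjusted p = 4.41e-05). miR-140-3p, from the gene Wwp2 and known for cartilage, was on the floor in feces, against 0.32 and 0.37 in serum, and was at least 54.9-fold lower (limma adjusted p = 6.08e-06). miR-205-5p, characteristic of stratified epithelia such as skin, was on the floor in feces too, against -0.66 and -1.37 in serum, and was at least 34.3-fold lower (limma adjusted p = 1.72e-05). It was also detected on no intestine array. miR-328-3p was at least 29.9-fold lower, miR-344i at least 28.3-fold and miR-193b-3p at least 20.6-fold. Bounds for all 14 exceeded 2-fold.

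Among miRNAs measured on all 6 arrays the lowest 5 changes belonged to miR-30d-5p, miR-3473f, miR-22-3p, miR-5100 and miR-29a-3p. miR-30d-5p, of a family common to most tissues, had -4.95, -5.15, -6.05 and -4.56 in feces, against 2.55 and 2.44 in serum (change -7.67 ± 0.44, limma adjusted p = 4.41e-05). miR-22-3p, widely expressed and abundant in heart and blood cells, had -2.88, -4.05, -5.85 and -2.66 in feces, against 2.35 and 2.33 in serum (-6.20 ± 0.92, limma adjusted p = 0.00195). miR-29a-3p, which represses collagens and other matrix genes, had -3.67, -5.81, -7.74 and -3.38 in feces, against 0.79 and 0.27 in serum (-5.68 ± 1.27, limma adjusted p = 0.00898, but 0.0756 without serum replicate 1 and 0.0562 without serum replicate 2). Every feces array lay below both serum arrays for the 3, although the feces arrays spanned over 4 log2 units for miR-29a-3p. miR-5100 fell by 5.84 ± 0.45 (limma adjusted p = 0.000147).

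Of 8 tested members of the miR-29 and miR-30 families 5 fell, none rose, and 3 did not pass, with a median change of -3.89. The share called was close to the 62.3% of all tested miRNAs, of which 30.7% were lower. miR-30a-5p had -4.71, -6.64, -7.14 and -4.44 in feces, against 1.94 and 1.78 in serum (change -7.59 ± 0.86, limma adjusted p = 0.000680, detected on 3 of 4 feces arrays). miR-30e-5p had a change of -5.03. miR-30c-5p passed too, at -1.94, but neither serum array detected it. miR-30b-5p (-0.01), miR-29b-3p (1.18) and miR-29c-3p (-2.76) did not pass. miR-29b-3p shares its seed with miR-29a-3p and was detected on the 4 feces arrays and neither serum array.

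In a group of miRNAs that share the name miR-3473, miR-3473f and miR-3473b were bright in serum, with means of 3.85 and 3.83. The serum means of the other tested members ran from -3.60 (miR-3473c) to 0.58 (miR-3473g). Of 7 on the array 6 were tested, and miR-3473f (-6.30 ± 0.48), miR-3473b (-5.13 ± 0.37), miR-3473e (-3.29 ± 0.38) and miR-3473a (-3.11 ± 0.32) were lower in feces (limma adjusted p from 0.000135 to 0.000729), all detected on the 6 arrays. miR-3473b stood at -1.31, -1.27, -1.89 and -0.73 in feces, against 3.65 and 4.01 in serum. miR-3473g (-0.90 ± 0.34) and miR-3473c (-0.92 ± 0.44) did not pass. The share of this group called was close to the 62.3% of all tested miRNAs. Of all tested miRNAs 30.7% were lower, and of those detected on all 6 arrays 46.3%. This group was looked at after its values were seen. The 4 that fell are the only ones of 520 tested miRNAs with a sequence to hold a shared run of 10 bases, shown in capitals. The run is the stretch common to these 4, so its absence from other miRNAs does not tie it to the fall. Near-identical members such as miR-3473b and miR-3473e, which share 18 bases in a row, are uncertain as separate measurements.
miR-3473f: caaauaggacUGGAGAGAUG
miR-3473b: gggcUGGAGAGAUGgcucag
miR-3473e: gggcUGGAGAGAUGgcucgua
miR-3473a: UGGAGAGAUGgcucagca
miR-3473g: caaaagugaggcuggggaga
miR-3473c: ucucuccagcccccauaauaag

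Markers of muscle, mesenchyme and vessels, where they could be tested, were lower in feces, and most listed members were detected in neither sample. Of those tested, miR-145a-5p, miR-125b-5p and miR-222-3p entered the test through serum alone. All 14 miRNAs found on both serum arrays and no feces array were lower, so these 3 say little about their lists. Over all tested miRNAs 30.7% were lower, and of those detected on all 6 arrays 46.3%. miR-133b-3p, which with miR-1 and miR-206 marks striated muscle, had -6.54, -6.19, -6.89 and -5.63 in feces, against -1.18 and -1.41 in serum (change -5.02 ± 0.40, limma adjusted p = 0.000167). miR-133a-3p fell by 3.99 ± 0.37 (limma adjusted p = 0.000299), and the other 5 of 7 listed were not tested, miR-1a-3p among them at 0 of 6 arrays. miR-145a-5p, a smooth muscle miRNA, was at least 11.6-fold lower in feces and miR-125b-5p, broadly expressed in stromal cells, at least 11.8-fold lower. The other 9 of 11 mesenchymal miRNAs, miR-143-3p included, were detected on no array of either group. miR-222-3p, high in endothelium, was at least 20.7-fold lower (limma adjusted p = 1.57e-05), and miR-126a-3p, the defining endothelial miRNA, was detected on neither sample.

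Leukocyte, liver, pancreas and neuron lists were thinly covered. Over all tested miRNAs 30.7% were lower in feces. Of 10 leukocyte miRNAs 4 were tested and 2 were lower in feces. Those were miR-342-3p above and miR-223-3p, a granulocyte miRNA that 1 of 2 serum arrays detected (-2.89 ± 0.49, limma adjusted p = 0.00344, and 0.0604 without serum replicate 2). miR-150-5p and miR-142a-3p were detected on none of the 6 arrays. miR-122-5p, the defining liver miRNA and a usual marker of serum, was detected on none of the 6. Of 5 pancreatic miRNAs 3 were tested and miR-375-3p alone fell. miR-212-3p, from a neuronal cluster, fell by 5.92 ± 0.94 (limma adjusted p = 0.00258). miR-138-5p passed at -3.49 with detection on 1 serum array. miR-124-3p, the defining neuronal miRNA, was detected on 1 feces array and neither serum array.

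Families that most cells express mostly did not pass, where 62.3% of all tested miRNAs passed and 30.7% were lower. In the let-7 family, which restrains growth genes in differentiated cells, 6 of 7 tested members did not pass, and let-7i-5p (-2.18 ± 0.68, limma adjusted p = 0.0318) was lower in feces with detection on 1 serum array. Of the 6 fits that leave out 1 array it passed only in the one without feces replicate 4 (limma adjusted p from 0.0537 to 0.218 in the other 5). let-7a-5p had -3.85, -5.15, -7.47 and -4.91 in feces and lay on the floor in serum, a change of 2.62 ± 0.95 that missed the threshold (limma adjusted p = 0.0529). In the clusters of miR-106b and miR-17, known to drive proliferation, 5 of 7 did not pass, with changes from 0.90 to 2.39. miR-92a-3p and miR-25-3p, which share a seed, fell by 7.29 ± 0.35 for miR-92a-3p and 5.76 ± 0.22 for miR-25-3p (limma adjusted p = 2.66e-05 and 1.58e-05). miR-92a-3p, known to be abundant in red cells and plasma, was detected on 2 of 4 feces arrays.

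In the miR-23, miR-24 and miR-27 clusters miR-23a-3p (-4.54 ± 1.15) and miR-24-3p (-3.98 ± 0.97) fell and 3 of 5 did not pass. Neither passed without either serum array (limma adjusted p from 0.0755 to 0.0961). None of the 5 tested members of the seed group of miR-15, miR-16, miR-103 and miR-107 passed, with changes from 0.14 to 1.71, and no serum array detected any of them. Among 6 tested widely expressed miRNAs miR-22-3p, miR-423-5p and miR-320-3p were lower, miR-21a-5p was higher, and 2 did not pass. Over all tested miRNAs 31.7% were higher and 30.7% lower.

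The miRNAs named from miR-6896 to miR-7119, many of which were annotated as products of short introns, split by arm. Of 116 tested 5p arms 58 rose, 16 fell and 42 did not pass, with a median change of 1.32, against 31.7% higher, 30.7% lower and a median of 0.48 over all tested miRNAs. Support was weaker than that count, since 47 of the 58 were undetected on both serum arrays and 20 of the higher calls against 14 of the lower ones were supported. Over the 33 detected on all 6 arrays 8 were higher, 11 lower and the median was -0.32. Their summed scaled level was 58.1 to 79.6 in feces and 28.2 to 29.4 in serum. Of 42 tested 3p arms none rose and 31 fell, with a median change of -2.07 (30.7% lower over all tested miRNAs), but only 1 of the 31 was supported. miR-7055-3p, miR-6943-3p and miR-7085-3p, the largest of them at -3.09, -2.99 and -2.98, were detected on 0, 1 and 0 serum arrays. Without scaling the median of the 3p arms was 1.56. Many miRNAs named miR-466, miR-467 or miR-669 derive from a repeat cluster inside the gene Sfmbt2, but the 8 tested were grouped by name alone. Of these 8 miR-466h-3p alone rose (2.01 ± 0.68, limma adjusted p = 0.0422), without a bound. Among the fits that leave out 1 array it passed only without feces replicate 2 or 3. Its change ran from 1.29 to 2.52 over those fits.

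**Figure D4:**
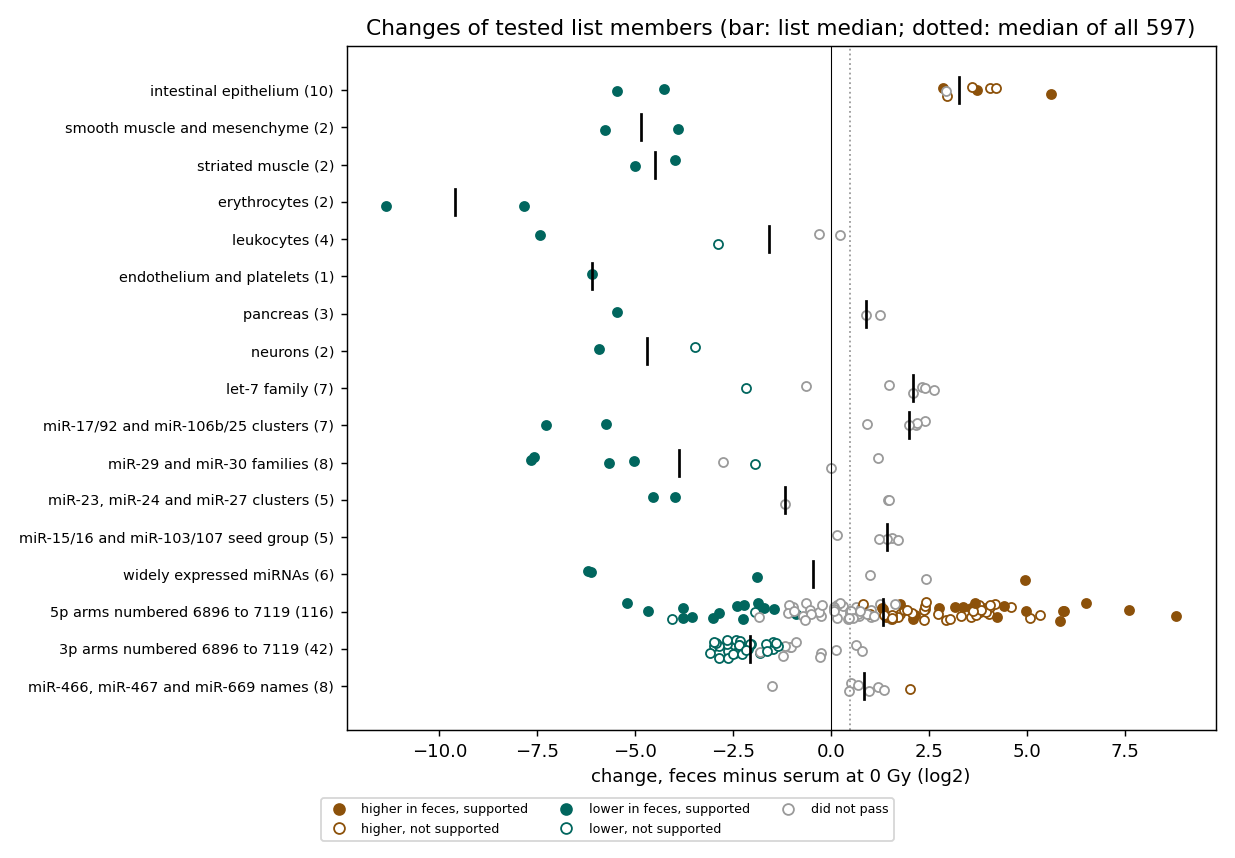
Change, feces minus serum in log2, of every tested member of 17 lists, with filled points for supported calls, open coloured points for other calls, grey for miRNAs that did not pass, a bar at each list's median and a dotted line at the median of all tested miRNAs (0.48). Red-cell, muscle and mesenchymal members lie at the left, epithelial members on both sides, and 5p and 3p arms spread to opposite sides with many open points.

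Base composition differed between miRNAs on the 2 sides. Over the 520 tested miRNAs with 1 mature sequence in RefSeq, the share of G in the sequence correlated with the change at Pearson r = 0.339 and Spearman rho = 0.356, the share of C at r = -0.334 and rho = -0.355, and the GC share at r = 0.0423. These are correlations across miRNAs, which share arrays, slides and labelling and are not independent replicates, so no p is given. Over the 116 with a sequence among those detected on all 6 arrays r was 0.303 for G and -0.239 for C. The median share of G was 45.5% in the supported higher miRNAs and 35% in the supported lower ones, and that of C was 13.96% and 22.7%. Among miRNAs detected on all 6 arrays the median share of G was 50% in the higher calls and 41.7% in the lower ones. In those that did not pass it was 50% too, as in the higher calls. miR-7118-5p and miR-342-3p show the contrast, with 59.1% G and 9.09% C in the first and 13.04% G and 39.1% C in the second. The median GC share was 61.9% in all higher calls and 59.1% in all lower calls, and on all 6 arrays 62.5% and 63.6%. 5p arms made up 58.2% of the higher calls and 30.6% of the lower ones, and 3p arms 20.6% and 49.7%, against 45.4% 5p and 33.2% 3p over all tested miRNAs. Among supported calls the contrast was smaller, with 36 5p and 11 3p arms of 62 higher and 39 5p and 31 3p arms of 98 lower. How far base composition alters signal on these slides was not tested.

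**Figure D5:**
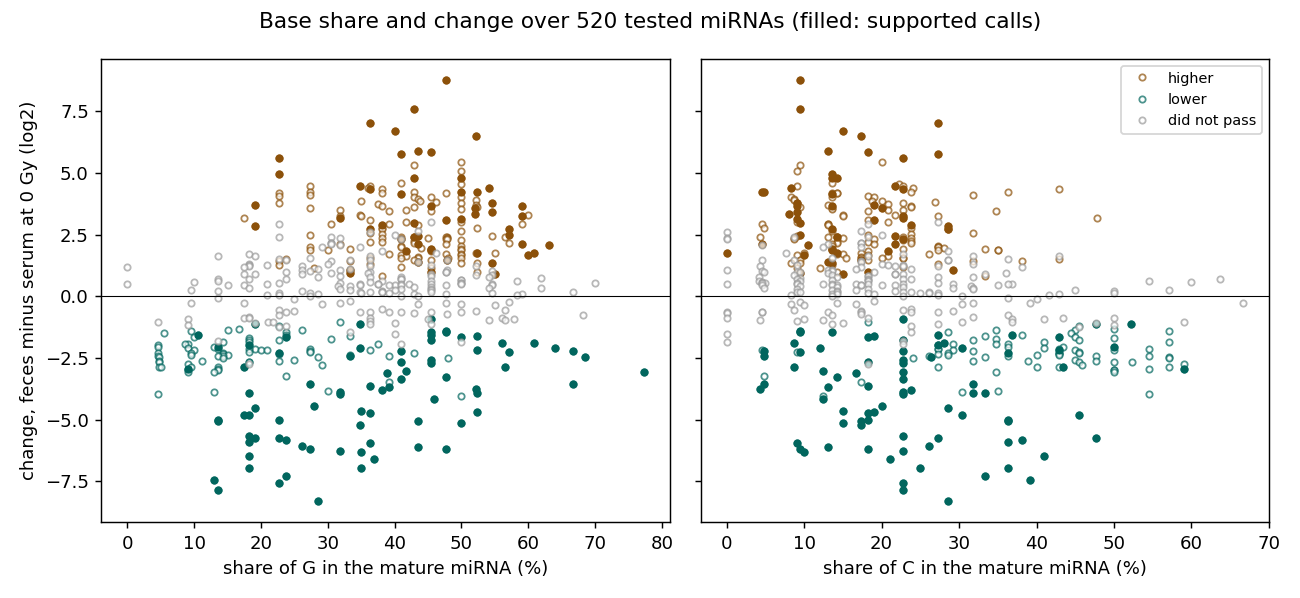
Change, feces minus serum in log2, against the share of G (left) and of C (right) in the mature sequence of 520 tested miRNAs, coloured by call, with filled points for supported calls. The changes tend upward with the share of G (r = 0.339) and downward with the share of C (r = -0.334), with wide scatter.

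Of 457 seeds 11 were shared by 3 or more tested miRNAs. At least 2 calls were held by 4 of the 11, and 1 of those 4 held a higher and a lower call. Over all tested miRNAs 62.3% were called, 31.7% higher and 30.7% lower. miR-30a-5p, miR-30c-5p and miR-30e-5p all fell, though neither serum array detected miR-30c-5p. Of the same family miR-30d-5p fell and miR-30b-5p did not pass, but neither was among the miRNAs with 1 mature sequence counted here. miR-200b-3p and miR-200c-3p rose beside miR-429-3p, and the 4 with the seed of miR-17-5p did not pass.

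The same comparison could be made in mice given 10 Gy, on 4 feces and 4 serum arrays that the results above did not use but that lay on the same 2 slides. There 283 of 421 tested miRNAs passed (67.2%), 169 higher and 114 lower. Of the 372 calls at 0 Gy 284 were tested at 10 Gy. In the same direction 225 passed and 48 did not, 0 of the others passed in the opposite direction by limma and 11 did not pass with a change of the opposite sign or none. miR-483-5p (4.17 ± 0.26), miR-7118-5p (3.82 ± 0.27) and miR-7020-5p (3.53 ± 0.28) were again higher. miR-486a-5p (-8.55 ± 0.12), miR-30d-5p (-5.69 ± 0.22) and miR-22-3p (-5.17 ± 0.44) were again lower. At 10 Gy miR-429-3p passed as well, at 2.50 ± 0.37 (limma adjusted p = 0.000771). An interaction term in 1 fit of the 4 groups called 24 of 635 miRNAs (3.78%) as differing between 0 and 10 Gy in their change.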

How the data were processed

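The deposited intensity of each spot, the processed signal, was made by the authors with Agilent Feature Extraction 11.5 (named in the submitters' processing notes and, per the file headers, in each file), which subtracts background. Per the file headers it was not normalized between arrays. No spot was saturated. Detection was read from the deposited 0 or 1 flag that marks a spot as well above background.

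Signals were averaged over a probe's spots without outlying ones, summed over a miRNA's probes, scaled to each array's 75th percentile among 136 miRNAs that all 6 arrays detected, raised to a floor (the median of the arrays' lowest detected values) and taken to log2. The 4 feces and 2 serum arrays at 0 Gy were fitted with limma 3.58.1 (lmFit, eBayes) in R 4.3.3, over 597 miRNAs detected on at least 2 arrays, with Benjamini-Hochberg adjustment. The fit was tested on simulated data. A bound sets the bright group's mean against the dim group's detection limit, floor or own value, whichever is highest, per probe, and the lowest is given. Bounds hold for this processing only. The number of arrays limits precision.

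Members and lists were chosen with earlier results of these data known. Named miRNAs were the 10 largest changes each way, the 6 largest each way on all 6 arrays, up to 3 called members of each list, and all tested epithelial, red-cell and liver members. Sequences matched 1608 of 1881 miRNAs.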

Additional observations from a re-analysis of the deposited data

Results flagged for a closer look

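For 5 of the named miRNAs the difference between feces and serum at 0 Gy itself differed from that at 10 Gy, by the interaction term of the 4-group limma fit (24 of 635 tested miRNAs, 3.78%, with 130 at an unadjusted p under 0.05). The value given is the change at 0 Gy minus the change at 10 Gy, in that fit. It was -1.96 for miR-486a-5p (limma adjusted p = 0.00373, and 0.0204 with quantile normalization), so the fitted deficit of this red-cell miRNA in feces was larger at 0 Gy. In the fit of the 10 Gy arrays alone its feces values lay on the floor (-5.945), so the deficit there is limited by the floor. It was -3.65 for miR-451a (limma adjusted p = 0.0230), which 1 of 4 serum arrays detected at 10 Gy, against 2 of 2 at 0 Gy. It was -2.52 for miR-344i (limma adjusted p = 0.000442), detected on 2 of 4 serum arrays at 10 Gy. It was -3.45 for miR-125b-5p (limma adjusted p = 7.24e-08), detected on 0 of 4 serum arrays at 10 Gy, so its level there is only a bound. No feces array at either dose detected miR-125b-5p, miR-451a or miR-344i, so their values rest on the serum arrays. Values raised to the floor add no spread, so the p of such miRNAs understates the spread between samples. It was -3.32 for let-7i-5p (limma adjusted p = 0.0230, and 0.0503 with quantile normalization), detected on 0 of 4 serum arrays at 10 Gy and 1 of 2 at 0 Gy. The hybridisation spike-in of the irradiated serum arrays ranged from 2.93 to 3.53 (log10), and its part in these differences was not tested. Of 62 sets of feces values examined for an array far from the other 3, none met the limit used.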

How the results depend on the processing

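The count and split of calls moved with the processing. With no scaling 350 were higher and 23 lower in feces (median change 2.45, against 0.48). With the hybridisation spike-in as scale 223 were called, 55 of them lower, and with the labelling spike-in 239 and 68. The normexp correction, whose offset of 50 compresses dim signals by construction, gave 29 higher and 511 lower (median -2.05). Agilent's total gene signal gave 120 lower. A floor at the highest of the arrays' lowest detected levels gave 156 calls, 52 higher and 104 lower, and a fit of the 136 miRNAs detected on all 6 arrays gave 88, 24 and 64. Within slide row 1 181 passed, 105 higher and 76 lower, and within row 2 0 passed, 0 higher and 0 lower. Leaving out 1 array gave 260 to 372 calls, 148 to 204 higher and 112 to 182 lower, the lowest total and the fewest lower calls without serum replicate 2, and detected miRNAs that were 280 to 379 more in feces. Quantile normalization gave 265 higher and 153 lower (median 1.30), the fit of all 6 groups 155 and 144, and no filter on detection 139 and 268 of 1881. The replicate number as a block gave 171 higher and 158 lower. Deviations of same-numbered arrays correlated at 0.0205 and 0.181 over only 2 shared numbers, so the numbers are not taken as pairs. Spike-in scalings, median scaling, total gene signal, the higher floor and the fixed limits for detection were chosen after seeing the data.

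Changes turned sign for 6 named miRNAs with no scaling: miR-223-3p 1.03, miR-138-5p 0.43, let-7i-5p 1.31, miR-7055-3p 0.83, miR-6943-3p 0.93 and miR-7085-3p 0.94. With normexp they turned for miR-6971-5p (-0.0531), miR-6991-5p (-0.18), miR-666-5p (-1.05), miR-194-5p (-0.33), miR-466h-3p (-2.05), miR-192-5p (-0.25), miR-215-5p (-1.44), miR-200a-3p (-1.10), miR-200b-3p (-1.0005), miR-200c-3p (-1.59), miR-141-3p (-1.26) and miR-429-3p (-1.40). The other 41 of 59 kept their sign in every alternative run. List medians turned with normexp for epithelium (-1.33), pancreas (-2.62), let-7 (-1.90), the miR-17 clusters (-1.87), the miR-15 seed group (-2.07), the 5p arms (-1.92) and miR-466 names (-2.10). They turned with no scaling for leukocytes (1.84), miR-23/24/27 (0.84), widely expressed miRNAs (1.78) and 3p arms (1.56). Widely expressed miRNAs also turned with quantile normalization (0.26) and the hybridisation and labelling spike-ins (0.31 and 0.0107), 3p arms with total gene signal (0.44), miR-23/24/27 within row 2 (0.0549), and, on all 6 arrays only, epithelium (-4.27) and 5p arms (-0.32). The cause of these turns was not tested, those with normexp included. Signal over background on the serum arrays limits every statement on miRNAs undetected there.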

Other observations

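Among the 24 miRNAs whose feces minus serum difference differed between the doses, the largest difference was that of miR-150-3p, the minor arm of a lymphocyte miRNA. Its interaction value, 0 Gy minus 10 Gy, was -5.08 ± 0.47 (limma adjusted p = 4.92e-05, and 2.28e-05 with quantile normalization). At 10 Gy it was detected on 4 of 4 feces arrays and 0 of 4 serum arrays. miR-181b-5p, expressed in lymphocytes and many tissues, had an interaction value of -2.99 ± 0.72 (limma adjusted p = 0.0386, and 0.0658 with quantile normalization). Both were chosen after their values were seen.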
